A study of Mus musculus with 31 samples.

Results

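The 10 genes described here carry the insulin and insulin-like growth factor (IGF) signal in muscle, together with myostatin, the secreted brake on muscle size. They were taken by symbol as the rows for Igf1, Igf1r, Igf2, Igfbp5, Irs1, Irs2, Insr, Akt2, Slc2a4 and Mstn, 10 of the 39017 gene identifiers in the count tables, and all 10 passed the filter on low counts, as did 14024 identifiers in all. RNA from the gastrocnemius, a calf muscle, was sequenced from MuRF1 knockout mice (Trim63 encodes MuRF1, a ubiquitin ligase of striated muscle) and from wild-type mice, in both sexes, on a high-fat diet or on chow. The question of the series is how MuRF1 knockout, sex and the diet shape the muscle transcriptome. Every mouse was 30 weeks old at collection and had free access to food, and the high-fat diet, 45% with lard as its source, was started at 8 weeks of age.

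The groups were female MuRF1 -/- mice on the high-fat diet (female KO HFD, n = 3), female wild types on that diet (female WT HFD, n = 4), female MuRF1 -/- mice on chow (female KO chow, n = 4) and female wild types on chow (female WT chow, n = 4). The male groups were male KO HFD (n = 3), male WT HFD (n = 4), male KO chow (n = 4) and male WT chow (n = 4), defined in the same way. The labels name no strain, no tissue-restricted deletion and no other allele. A library was placed by the title that carries the animal number in its description, because in 19 records the title of the record itself carries another animal, and 1 library whose described animal is in no title was put in no group. This left 30 libraries, each from an animal with a number of its own, and 4 of the 31 libraries would fall in another group by the title of their own record.

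IGF-1 and IGF-2 are secreted growth factors that bind the receptor tyrosine kinase encoded by Igf1r, and insulin binds the related kinase encoded by Insr. Both receptors phosphorylate the adaptor proteins IRS1 and IRS2, which recruit phosphoinositide 3-kinase and so activate AKT, with AKT2 as the isoform most tied to glucose uptake through GLUT4, the transporter encoded by Slc2a4. AKT also switches on protein synthesis through mTOR and keeps the FoxO factors out of the nucleus, and FoxO factors drive the genes of muscle wasting, Trim63 among them. Myostatin acts through activin receptors and SMAD factors and restrains muscle growth.

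Total counts ran from 9342028 to 14919379 per library (median 12643121), and mitochondrial genes held 5.40% to 13.8% of them. Trim63 lay between 0.487 and 7.75 CPM (a count relative to the total of its library, scaled by TMM) in the 14 KO libraries, against 107 to 271 CPM in the 16 WT libraries. Xist and Ddx3y matched the sex of the group in all 30 libraries. By the titles of their own records, 4 of the 30 grouped libraries would go against these genes. Male KO HFD replicate 3 (male Ddx3y at least 34.7 CPM) would be female WT chow. Female WT chow replicate 4 and female WT HFD replicate 4 (female WT Trim63 at least 121 CPM) would be female KO. Female KO chow replicate 4 (Trim63 in that group at most 1.47 CPM) would be female WT HFD. The library in no group also goes against its own title, male KO HFD, with Trim63 at 107 CPM without TMM scaling. Of the WT libraries, male WT chow replicate 3, female WT chow replicate 1 and female WT HFD replicate 4 held 107, 121 and 124 CPM. Krt10, a keratin of skin, was over 10 times its median in female KO chow replicates 1 and 3 and female WT chow replicate 3. Leaving out the 3 libraries of either kind ended some calls, as given beside the results. The markers of muscle fibres were high in every library, with a summed level of 144703 to 257212 CPM over 10 muscle-fibre genes.

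Levels between genes are compared per kilobase of exon. Slc2a4 stood at 144 ± 15.5 CPM per kb (SD over the 30 libraries) and Igfbp5, which encodes an IGF-binding protein, at 110 ± 28.5 CPM per kb, and these ranges run into each other. Akt2 followed at 38.4 ± 3.80 CPM per kb and Mstn at 23.5 ± 8.32 CPM per kb. Of the receptors, Insr reached 7.06 ± 1.07 CPM per kb and Igf1r only 0.241 ± 0.0785 CPM per kb. The ligands and adaptors lay between the receptors, with Igf2 at 3.58 ± 1.25, Irs1 at 3.22 ± 1.29, Irs2 at 1.90 ± 0.740 and Igf1 at 1.48 ± 0.671 CPM per kb, and within this set Igf2 and Irs1, and Irs2 and Igf1, differ by less than 1 SD. The lowest count of Igf1 in a library was 34. IGF-1 and insulin also reach muscle through the blood, which the transcripts do not show.

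**Figure D1:**
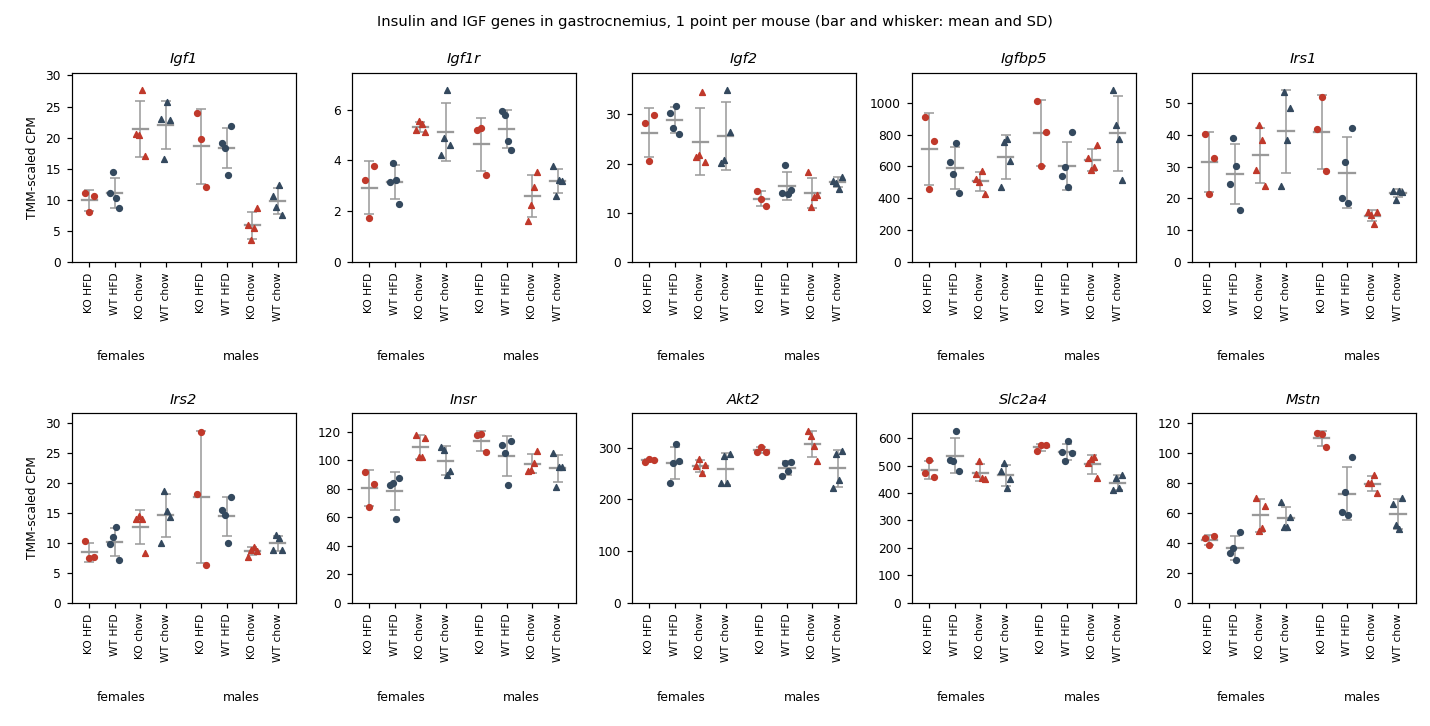
Level of each of the 10 genes in every library, in TMM-scaled CPM on axes that start at 0, with KO in red, WT in dark blue, circles for the high-fat diet and triangles for chow; bars and whiskers are the group mean and SD. The Igf1 panel shows the 7 female HFD libraries between 8.01 and 14.4 CPM, below the 8 female chow libraries at 16.6 to 27.7 CPM, while in males the HFD libraries lie above the chow libraries within each genotype and the pooled ranges overlap, at 12.0 to 23.9 CPM on HFD and 3.47 to 12.4 CPM on chow.

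The high-fat diet moved Igf1 in opposite directions in females and males, and the difference was the widest among the 10 genes. In females, Igf1 held 11.1, 8.01 and 10.6 CPM in KO HFD muscle, against 20.5, 20.4, 27.7 and 17.1 CPM in KO chow muscle. Female WT HFD libraries held 11.1, 14.4, 10.3 and 8.64 CPM, against 23.0, 16.6, 25.8 and 22.8 CPM in female WT chow. Every female HFD library was below every female chow library, in both genotypes.

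In males the order turned. Igf1 held 23.9, 19.8 and 12.0 CPM in male KO HFD muscle, against 5.88, 3.47, 5.38 and 8.70 CPM in male KO chow. Male WT HFD libraries held 19.1, 18.3, 14.0 and 21.9 CPM, against 10.6, 8.88, 12.4 and 7.60 CPM in male WT chow. The HFD and chow ranges did not overlap in either male genotype, and male KO chow replicates 1 to 3 held the 3 lowest levels of the 30 libraries.

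Fitted over all genes with the quasi-likelihood test of edgeR, Igf1 fell on the high-fat diet in KO females (log2 fold change -1.11 ± 0.24, standard error; adjusted p = 0.0043) and in WT females (-0.98 ± 0.22, adjusted p = 0.0028). It rose in KO males (1.64 ± 0.25, adjusted p = 0.0012), while WT males gave 0.89 ± 0.22 with an adjusted p of 0.063. The difference between the diet effect in females and that in males was -2.31 ± 0.23 on the log2 scale (adjusted p = 1.2e-07). Over all 39 alternative fits, which included leaving out each of the 30 libraries in turn, that difference stayed between -2.42 and -1.93. The female KO call was lost without the libraries high in Krt10 (-0.91, adjusted p = 0.085) and without female KO HFD replicate 2 (-0.98, adjusted p = 0.060), and the female WT call was lost with a GC correction (-0.62, adjusted p = 0.061) and with grouping by the records' own titles (-0.53, adjusted p = 0.19).

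Of the 10 genes, 6 passed the test of a diet effect that differs between the sexes, namely Igf1, Igf1r, Irs1, Irs2, Insr and Mstn, each with a negative difference. Of all 14024 genes, 45.2% passed the same test, so 6 of 10 is close to what the table as a whole gave. The median difference of the 10 genes was -0.75 on the log2 scale, beside -0.03 over all genes tested. The 10 genes were chosen with earlier results of these data known, so these medians are a description. All 6 kept their call in each of the 9 other settings and the 30 leave-outs. Igf2, Igfbp5, Akt2 and Slc2a4 did not pass, at 0.23 ± 0.18, 0.21 ± 0.23, 0.09 ± 0.10 and -0.13 ± 0.09 on the log2 scale. Slc2a4 passed with a GC correction (-0.36, adjusted p = 0.00019) and Igf2 without the libraries high in Krt10 (0.45, adjusted p = 0.029).

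**Figure D2:**
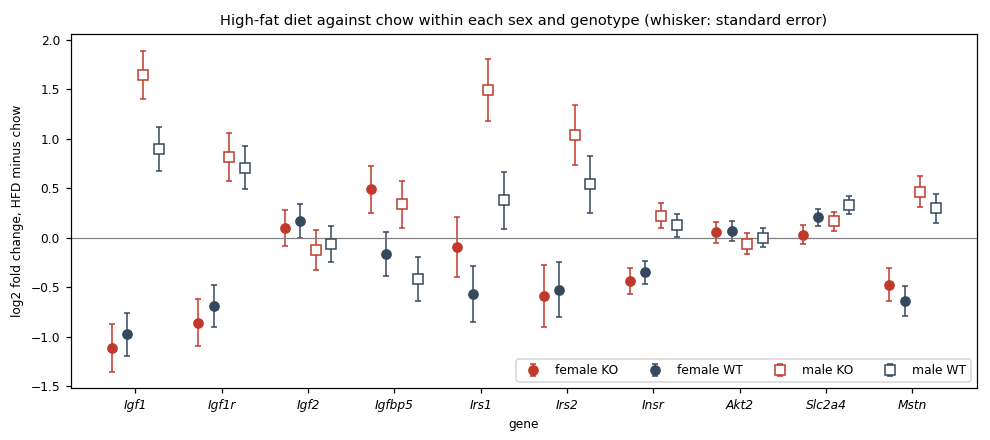
Fitted log2 fold change of the high-fat diet against chow for each gene (vertical axis), with KO in red and WT in dark blue, filled circles for females and open squares for males; whiskers are standard errors and the line marks no change. For Igf1 the female points lie at -1.11 and -0.98 and the male points at 1.64 and 0.89, whereas the 4 points of Akt2 lie between -0.06 and 0.07.

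Within single groups, the diet called 4 of the 10 genes in KO females, where 19.2% of all genes were called, and 4 in WT females, where 25.4% were. In KO males it called 4 of the 10, against 5.83% of all genes. In WT males it called 0 of the 10 with edgeR, against 0.349% of all genes; 3 had an unadjusted p below 0.05, and DESeq2 called 2, Igf1 and Slc2a4. In WT females the count is 0 with grouping by the records' own titles, 1 with a GC correction and 2 without the libraries with Trim63 of 50 to 150 CPM. The count in KO females is 0 without female KO HFD replicate 2 or without the libraries high in Krt10, and 2 without female KO chow replicate 1 or 4. The count in KO males is 1 without male KO HFD replicate 2, and 2 without any 1 of male KO chow replicates 1 to 3, male KO HFD replicate 1 or female KO chow replicates 1 to 3. In WT males it is 1 without male KO chow replicate 2 or 4 or male KO HFD replicate 3. The diet, sex and genotype comparisons share libraries, so their values are set side by side here and are not independent of each other.

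Both receptor genes fell on the high-fat diet in females. Igf1r, the receptor for both IGFs, held 3.24, 1.75 and 3.79 CPM in female KO HFD, against 5.19, 5.56, 5.43 and 5.13 CPM in female KO chow. It held 3.16, 3.91, 3.23 and 2.28 CPM in female WT HFD, against 4.20, 4.88, 6.79 and 4.60 CPM in female WT chow. The female HFD and chow libraries did not overlap in either genotype, and Igf1r fell by 0.86 ± 0.24 (adjusted p = 0.015) in KO females and by 0.69 ± 0.22 (adjusted p = 0.020) in WT females. The KO call was lost without female KO HFD replicate 2 (-0.60, adjusted p = 0.18) and without the libraries high in Krt10 (-0.86, adjusted p = 0.095). The WT call was lost without female WT chow replicate 3 (-0.52, adjusted p = 0.11) or female WT HFD replicate 4 (-0.57, adjusted p = 0.063). It was lost without the libraries high in Krt10 (-0.51, adjusted p = 0.13) or those with Trim63 of 50 to 150 CPM (-0.66, adjusted p = 0.054). Keeping only the libraries whose own title gives the same group also ended it (-0.62, adjusted p = 0.076), as did grouping by the records' own titles (-0.31, adjusted p = 0.44).

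In male muscle Igf1r held 5.20, 5.28 and 3.44 CPM in KO HFD, against 1.62, 2.24, 2.95 and 3.56 CPM in KO chow. The ranges met in male KO HFD replicate 3, whose 3.44 CPM lies below the highest chow library. Male WT HFD libraries held 5.97, 5.78, 4.78 and 4.42 CPM, against 3.78, 2.62, 3.23 and 3.20 CPM in male WT chow, without overlap. Igf1r rose in KO males (0.82 ± 0.24, adjusted p = 0.043), a call lost without any 1 of male KO chow replicates 1 to 3, male KO HFD replicates 1 and 2 and the 4 female KO chow libraries (0.63 to 0.99 over all leave-outs). It was also lost with no count filter (adjusted p = 0.065), with only the groups compared (0.055), without the libraries high in Krt10 (0.055) and with a replicate block (0.063), at 0.79 to 0.80. Igf1r gave 0.71 ± 0.22 in WT males (adjusted p = 0.17). The difference between the sexes in the diet effect was -1.53 ± 0.23 (adjusted p = 9.7e-06).

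Insr, the insulin receptor, changed less. Its level was 91.5, 66.8 and 83.6 CPM in female KO HFD, against 117, 102, 102 and 116 CPM in female KO chow. It was 82.8, 84.1, 58.6 and 87.7 CPM in female WT HFD, against 109, 107, 89.3 and 92.6 CPM in female WT chow. No female HFD library of either genotype reached the chow libraries of that genotype, and Insr fell by 0.44 ± 0.13 (adjusted p = 0.019) in KO females and by 0.35 ± 0.12 (adjusted p = 0.030) in WT females. The KO call was lost without female KO chow replicate 1 or 4 or female KO HFD replicate 2, at -0.53 to -0.32 over all leave-outs. The WT call was lost in 8 of the 30 leave-outs, at -0.40 to -0.23, with the highest adjusted p of 0.16. Leaving out the libraries high in Krt10 ended the KO call (-0.43, adjusted p = 0.12), and leaving out those with Trim63 of 50 to 150 CPM ended the WT call (-0.35, adjusted p = 0.066). Grouping by the records' own titles ended both, and a GC correction (-0.24, adjusted p = 0.11) or only the groups compared ended the WT call. In males Insr ran from 82.8 to 118 CPM on the high-fat diet, against 81.4 to 107 CPM on chow, with overlap, and neither genotype passed. The diet effect differed between the sexes by -0.57 ± 0.12 (adjusted p = 0.00051).

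The adaptor genes Irs1 and Irs2 were called for diet in KO males, and the difference of the diet effect between the genotypes, averaged over sex, did not pass for either (adjusted p = 0.46 for Irs1 and 0.88 for Irs2). Irs1 held 42.0, 51.9 and 28.7 CPM in male KO HFD, against 15.7, 14.7, 12.1 and 15.7 CPM in male KO chow. The lowest HFD library held more than the highest chow library, and Irs1 rose by 1.49 ± 0.31 on the log2 scale (adjusted p = 0.011; 0.062 without male KO HFD replicate 2). In male WT muscle Irs1 held 20.1, 31.5, 18.6 and 42.3 CPM on the high-fat diet, against 22.3, 19.6, 22.4 and 22.2 CPM on chow, with overlap. Female libraries overlapped widely, from 16.5 to 40.2 CPM on the high-fat diet, against 23.9 to 53.7 CPM on chow, and the female diet effects did not pass (KO -0.09 ± 0.30, WT -0.56 ± 0.28).

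Irs2 held 18.2, 28.6 and 6.37 CPM in male KO HFD, against 7.70, 8.77, 9.28 and 8.70 CPM in male KO chow. Male KO HFD replicate 3 was the lowest of all 7 libraries and the others were the highest, so the log2 fold change of 1.04 ± 0.30 (adjusted p = 0.044) rests on single libraries. It was 0.49 (adjusted p = 0.34) without male KO HFD replicate 2 and 1.42 (adjusted p = 0.0017) without replicate 3, and the call was lost in 13 of the 30 leave-outs. It was also lost without the libraries high in Krt10 (1.02, adjusted p = 0.062), with no count filter (1.01, adjusted p = 0.10), with only the groups compared (1.02, adjusted p = 0.20) and with a replicate block (0.94, adjusted p = 0.071). Male WT HFD libraries held 15.5, 14.6, 9.90 and 17.7 CPM, against 8.78, 11.3, 10.8 and 8.80 CPM in male WT chow. Female levels were 10.2, 7.46 and 7.58 CPM in KO HFD, against 13.9, 14.5, 14.0 and 8.37 CPM in KO chow. Female WT HFD libraries held 9.75, 11.0, 12.6 and 7.15 CPM, against 10.0, 18.7, 15.3 and 14.4 CPM in female WT chow. None of these further diet effects passed, but the difference of the diet effect between the sexes did, at -1.34 ± 0.30 (adjusted p = 0.0008) for Irs2 and -1.26 ± 0.30 (adjusted p = 0.0015) for Irs1.

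The promoters of Irs1 and Irs2 are shown as those of the adaptor genes among the 6 members that passed that test with a negative sign. They were read from 250 bases before to 50 after the start in the RefSeq table of build GRCm38.p6, and the E-box motif was added after the values were seen. Each holds the palindrome CACGTG, a form of the E-box CANNTG, at position -115 of Irs1 and -44 of Irs2, counted from the start. The stretches around it are shown 5′ to 3′ on the gene's minus strand, with the palindrome in capitals, at chr1:82291529-82291574 for Irs1 and chr8:11008948-11008993 for Irs2.
Irs1: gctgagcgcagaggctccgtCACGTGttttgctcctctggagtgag
Irs2: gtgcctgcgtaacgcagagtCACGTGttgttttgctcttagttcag
The form CACGTG was in 7.15% of 32851 promoters of the same length and CANNTG in 72.3%, and each of these patterns reads the same on both strands. Igf1, Igf1r and Mstn passed the same test and have no CACGTG in their windows, and Insr, which also passed, has no window in the table. E-boxes bind basic helix-loop-helix factors, and no binding was measured here. The windows of Irs1 and Irs2 hold 71.3% and 72.0% G and C, and that of Igf1r 76.0%.

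Myostatin showed both a genotype and a diet by sex pattern. Mstn held 113, 113 and 104 CPM in male KO HFD, against 60.6, 74.3, 58.9 and 97.3 CPM in male WT HFD. On chow it held 79.9, 79.9, 85.2 and 73.3 CPM in male KO, against 65.7, 51.8, 49.4 and 70.1 CPM in male WT. In both diets the male KO libraries lay above every male WT library of that diet.

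In females the KO HFD libraries held 42.9, 38.4 and 44.5 CPM, against 33.5, 36.5, 28.4 and 47.3 CPM in WT HFD. The female KO chow libraries held 70.0, 48.0, 50.2 and 64.9 CPM, against 67.1, 50.9, 50.8 and 57.2 CPM in WT chow. The genotypes overlapped on both diets in females. The difference between the sexes in the genotype effect was -0.39 ± 0.16, with an unadjusted p of 0.020 that did not pass over all genes (adjusted p = 0.38).

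Averaged over sex and diet, Mstn was higher in KO muscle by 0.32 ± 0.08 on the log2 scale (adjusted p = 0.018). It was the 1 gene of the 10 called for genotype, where 4.39% of all genes were called. The call held in each leave-out, at 0.29 to 0.36, and was lost without the libraries high in Krt10 (0.30, adjusted p = 0.062) and when libraries were grouped by the titles of their own records (0.19, adjusted p = 0.39). On the high-fat diet Mstn fell in WT females by 0.64 ± 0.15 (adjusted p = 0.0045) and in KO females by 0.47 ± 0.17 (adjusted p = 0.043). The KO call was lost in 11 of the 30 leave-outs, with the highest adjusted p, 0.24, without female KO HFD replicate 2 (-0.41). It was also lost without the libraries high in Krt10 (-0.43, adjusted p = 0.20), and both female calls were lost with a GC correction (WT -0.30, adjusted p = 0.12; KO -0.19, adjusted p = 0.36) and with grouping by the records' own titles. In males the diet gave 0.47 ± 0.16 in KO (adjusted p = 0.074) and 0.30 ± 0.15 in WT (adjusted p = 0.49). The diet effect differed between the sexes by -0.94 ± 0.16 (adjusted p = 3.9e-05).

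The promoter of Mstn, at chr1:53061390-53061689 of GRCm38.p6 on the plus strand, is shown because no other member's window holds as many E-boxes. Capitals mark 4 matches to CANNTG, at -229, -174, -52 and -19, and TATAAA at -29.
Mstn: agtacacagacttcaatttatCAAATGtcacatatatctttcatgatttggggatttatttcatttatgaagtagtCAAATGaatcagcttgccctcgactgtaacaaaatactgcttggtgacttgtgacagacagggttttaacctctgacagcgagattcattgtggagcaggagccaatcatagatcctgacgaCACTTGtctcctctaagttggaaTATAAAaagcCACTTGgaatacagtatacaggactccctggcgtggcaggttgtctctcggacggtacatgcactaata
At least 4 matches to CANNTG were in 6.49% of the 32851 promoters, and TATAAA, read on both strands, was in 13.6%. Of the other motifs searched on both strands, GTAAACA of the FoxO factors was in 3.65% of promoters and in no window of the 8 members that the table holds, and the MEF2 motif, in 3.69%, was in none either. The glucocorticoid receptor motif AGAACA, in 19.0%, was in 1 of the 14 windows, that of an Igf2 start. No match overlaps another, and these matches are letters in a window, with no binding measured.

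Igf2, the growth factor of early life that stays on at a lower level in adult mouse muscle, gave the plainest sex difference of the 10 genes. In females it held 28.3, 20.5 and 29.9 CPM in KO HFD, 30.2, 27.2, 31.8 and 26.1 CPM in WT HFD, 21.4, 21.7, 34.6 and 20.2 CPM in KO chow, and 20.0, 20.7, 35.0 and 26.5 CPM in WT chow. In males it held 14.4, 12.7 and 11.4 CPM in KO HFD, 14.0, 19.7, 13.7 and 14.6 CPM in WT HFD, 18.2, 11.1, 13.1 and 13.5 CPM in KO chow, and 16.5, 16.0, 14.9 and 17.3 CPM in WT chow. The lowest of the 15 female libraries, at 20.0 CPM, lay above the highest of the 15 male libraries, at 19.7 CPM. Igf2 was higher in females by 0.85 ± 0.09 on the log2 scale (adjusted p = 2.1e-08), and by 1.03, 0.90, 0.81 and 0.66 in KO HFD, WT HFD, KO chow and WT chow, each past the test. The WT chow call was lost without female WT chow replicate 3 (0.47, adjusted p = 0.10). The exons of Igf2 overlap those of Igf2os on the other strand, which held at most 4 counts in a library.

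For the average over genotype and diet, sex called 5 of the 10 genes, against 30.8% of all genes. Igf2, Igf1 (0.35 ± 0.12, adjusted p = 0.022) and Irs1 (0.44 ± 0.15, adjusted p = 0.027) were higher in females, and Mstn (-0.73 ± 0.08, adjusted p = 2e-08) and Insr (-0.16 ± 0.06, adjusted p = 0.044) were lower. Without the libraries high in Krt10, Igf2 and Mstn remained, while Igf1 (0.27, adjusted p = 0.10), Irs1 (0.44, adjusted p = 0.061) and Insr (-0.15, adjusted p = 0.10) did not pass. Of the 30 leave-outs, 12 ended the Insr call, 6 that of Irs1 and 2 that of Igf1. The count is 3 without male KO HFD replicate 3 or female KO HFD replicate 1. For Igf1 the average joins opposite differences, since on chow females were higher by 1.85 ± 0.23 (KO, adjusted p = 9.1e-07) and 1.16 ± 0.22 (WT, adjusted p = 0.00076), and on the high-fat diet they were lower by 0.91 ± 0.26 (KO, log2 fold change -0.91, adjusted p = 0.019) and 0.71 ± 0.22 (WT, log2 fold change -0.71, adjusted p = 0.032). Mstn was lower in females by most in KO HFD (-1.39 ± 0.18, adjusted p = 2.2e-06), followed by WT HFD (-1.001 ± 0.15, adjusted p = 4.4e-05) and KO chow (-0.45 ± 0.15, adjusted p = 0.017). WT chow gave -0.07 ± 0.15 for Mstn and did not pass.

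Per stratum, sex called 5 of the 10 genes in KO HFD (13.4% of all genes), 5 in WT HFD (12.5%), 5 in KO chow (42.6%) and 4 in WT chow (12%). On chow the called genes other than Mstn, namely Igf1, Igf1r, Igf2 and Irs1, were all higher in females. On the high-fat diet Igf2 was higher and Igf1, Insr and Mstn were lower in females in both genotypes, with Igf1r also lower in WT (-0.71 ± 0.22, adjusted p = 0.029) and Irs2 lower in KO (-1.07 ± 0.33, adjusted p = 0.032; -0.54 and adjusted p = 0.31 without male KO HFD replicate 2). The count in WT chow is 1, Igf1, without the 3 libraries high in Krt10 or without female WT chow replicate 3 alone, and 2 without female WT chow replicate 4 or any 1 of male WT chow replicates 2 to 4. In WT HFD it is 3 without the libraries with Trim63 of 50 to 150 CPM, which ended the calls of Igf1 (-0.62, adjusted p = 0.076) and Igf1r (-0.61, adjusted p = 0.077). It is 2 there without male WT HFD replicate 1 or 2 or female WT HFD replicate 3, and 3 without male WT HFD replicate 4 or female WT HFD replicate 4. In KO HFD it is 2 without male KO HFD replicate 2 or female KO HFD replicate 2, and 3 without male KO HFD replicate 1. The WT chow and WT HFD counts fall to 1 and 2 when libraries are grouped by the titles of their own records.

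**Figure D3:**
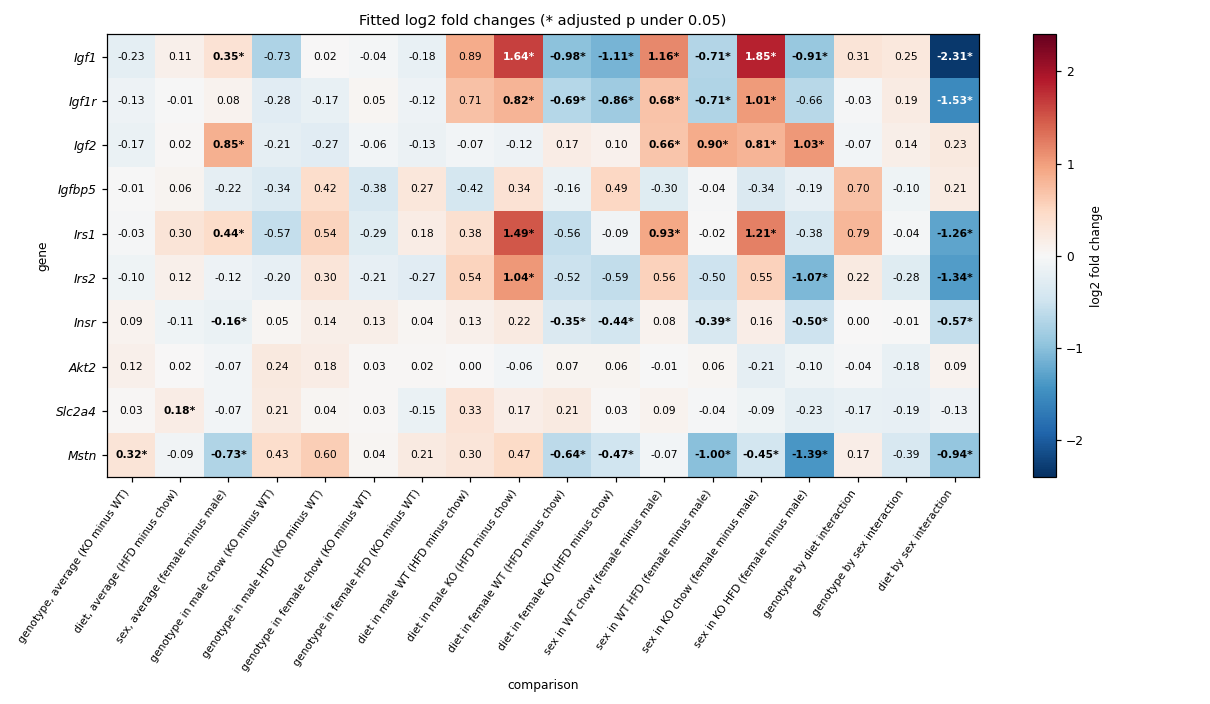
Fitted log2 fold changes of the 10 genes (rows) in the 18 comparisons (columns), with the colour scale in log2 units and a star where the adjusted p over all genes was under 0.05. The column for diet by sex holds 6 stars with Igf1 at -2.31, the genotype columns hold 1, for Mstn at 0.32, and the rows of Igfbp5 and Akt2 hold none.

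Knockout of MuRF1 left most of the 10 genes without a called difference. In KO males on chow 0 of the 10 were called by edgeR, against 6.95% of all genes; 4 had an unadjusted p under 0.05, and DESeq2 called 1, Igf1. The count is 3 without male WT chow replicate 4, and 1 without male KO chow replicate 4, male KO HFD replicate 3 or female WT HFD replicate 4. Igf1 there held the values given above, 3.47 to 8.70 CPM in KO, against 7.60 to 12.4 CPM in WT, with overlap in 1 library and a log2 fold change of -0.73 ± 0.24 (adjusted p = 0.062). Irs1 in the same mice ran from 12.1 to 15.7 CPM in KO, against 19.6 to 22.4 CPM in WT, without overlap, and gave -0.57 ± 0.30 (adjusted p = 0.26). In KO males on the high-fat diet 0 were called, against 0.264% of all genes, with 1 unadjusted p under 0.05, that of Mstn (0.60 ± 0.16, adjusted p = 0.11), and 0 by DESeq2. Without male WT HFD replicate 4 the count is 1.

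In KO females 0 were called by edgeR and by DESeq2 on the high-fat diet (0.0713% of all genes) and on chow (0.0927%), and 0 had an unadjusted p under 0.05. The female log2 fold changes ran from -0.38 for Igfbp5 on chow to 0.27 for the same gene on the high-fat diet. The genotype by diet difference called 0 of the 10, against 0.107% of all genes, with 2 unadjusted p under 0.05, those of Igfbp5 (0.70 ± 0.23) and Irs1 (0.79 ± 0.30). The genotype by sex difference also called 0, against 0.0285%, with 2 unadjusted p under 0.05. DESeq2 called 0 in both.

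Slc2a4, which encodes the insulin-responsive glucose transporter GLUT4, was the 1 gene of the 10 called for the diet average, where 0.827% of all genes were. It held 553, 575 and 576 CPM in male KO HFD, against 509, 525, 533 and 456 CPM in male KO chow. It held 548, 517, 589 and 547 CPM in male WT HFD, against 410, 456, 419 and 466 CPM in male WT chow. Every male HFD library was above the male chow libraries of its genotype.

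Female Slc2a4 levels overlapped, at 457 to 628 CPM on the high-fat diet, against 419 to 519 CPM on chow. The average log2 fold change was 0.18 ± 0.05 (adjusted p = 0.046). The call was lost in 24 of the 30 leave-outs, at log2 fold changes of 0.16 to 0.20, and in 8 of 9 other settings, with the lowest value, 0.10 (adjusted p = 0.27), under a GC correction. DESeq2 kept it (0.18, adjusted p = 0.0062).

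Akt2, the kinase upstream of GLUT4 traffic, held to a narrow range of 223 to 332 CPM over all 30 libraries, with group means of 259 to 308 CPM. Male KO libraries on the high-fat diet, at 291, 302 and 292 CPM, lay above the male WT HFD libraries, at 245, 271, 254 and 273 CPM, and the difference of 0.18 ± 0.11 did not pass. Akt2 passed in none of the 18 comparisons as fitted, and it passed in some alternatives. Under a GC correction it passed for the genotype average (0.16, adjusted p = 0.020), and without male WT chow replicate 4 for genotype in males on chow (0.32, adjusted p = 0.046). For sex in KO chow, lower in females, it passed with DESeq2 (-0.23, adjusted p = 0.039), with only the groups compared (-0.21, adjusted p = 0.016), without the libraries with Trim63 of 50 to 150 CPM (-0.24, adjusted p = 0.046) and in 10 of the 30 leave-outs.

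Igfbp5, the binding protein that holds IGFs in the tissue, ranged from 430 to 1081 CPM. Male KO HFD libraries held 1012, 600 and 816 CPM, against 653, 575, 597 and 735 CPM in male KO chow, and male WT HFD libraries held 538, 597, 467 and 814 CPM, against 1081, 862, 773 and 515 CPM in male WT chow. Within each male genotype the diet groups overlapped. Female levels ran from 433 to 909 CPM on the high-fat diet, against 430 to 772 CPM on chow, and the diet gave 0.49 ± 0.24 in KO females (adjusted p = 0.14). Igfbp5 passed in none of the 18 comparisons as fitted. With only the groups compared it passed for sex in KO chow, lower in females (-0.33, adjusted p = 0.0089).

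Summed markers of several other cell types in the muscle had medians lower on HFD than on chow in females and higher on HFD in males, the order that Igf1 had, with overlapping male ranges. Over 10 fibroblast genes, the summed level ran from 615 to 1446 CPM in female HFD libraries, against 1463 to 2421 CPM in female chow libraries. In males it ran from 714 to 1488 CPM on the high-fat diet, against 253 to 1278 CPM on chow, with the lowest values in male KO chow (253 to 794 CPM). Summed over 10 macrophage genes the level was 108 to 193 CPM in female HFD, against 212 to 303 CPM in female chow, and 118 to 218 CPM in male HFD, against 46.9 to 190 CPM in male chow. The adipocyte genes ran from 36.2 to 130 CPM in female HFD, against 105 to 410 CPM in female chow, and from 48.6 to 131 CPM in male HFD, against 20.3 to 78.6 CPM in male chow. The tendon genes ran from 71.6 to 283 CPM in female HFD, against 247 to 486 CPM in female chow, and from 148 to 256 CPM in male HFD, against 89.4 to 195 CPM in male chow. These lists share an order of medians in each sex, and fibroblasts, macrophages and fibres of muscle can all express Igf1. Endothelial medians differed less, at 297 CPM in female HFD, against 321 CPM in female chow, and 268 CPM in male HFD, against 248 CPM in male chow. In WT alone the endothelial order turned, at 349 CPM on HFD, against 327 CPM on chow, in females and 282 CPM, against 332 CPM on chow, in males. Satellite cell medians, pooled over genotype, were higher on HFD in females, at 7.69 CPM, against 5.77 CPM on chow. In males the pooled medians were 5.57 CPM on HFD and 5.20 CPM on chow, but within each male genotype the median was lower on HFD. It was 3.49 CPM, against 5.14 CPM on chow, in male KO and 5.70 CPM, against 5.85 CPM on chow, in male WT. Smooth muscle and Schwann cell medians, pooled over genotype, had the order of the fibroblast list, which did not hold in every genotype. The smooth muscle median was 382 CPM in male WT HFD, against 460 CPM in male WT chow. In female KO the Schwann cell median was 110 CPM on either diet.

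In the diet by sex comparison, 7 of the 10 fibroblast and 8 of the 10 macrophage genes passed, each with a negative difference. The list medians were -0.95 and -1.08 on the log2 scale. Of the 10 muscle-fibre genes, 7 passed with a positive difference, beside 45.2% of all genes passing in either direction. Xist, which served as a check of sex, ran in females from 71.5 to 168 CPM on HFD, against 184 to 256 CPM on chow, without overlap, and its relation to the female differences of the 10 genes was not tested. All 10 fibroblast genes also fell in male KO chow against male WT chow. The keratinocyte genes summed to 1.62 to 79.0 CPM in female KO chow and 1.48 to 44.5 CPM in female WT chow, and to at most 5.22 CPM in any other group, and Krt1, Krt5 and Krt14 were at 0 in every male library. In bulk muscle, fewer cells of a type and less RNA per cell cannot be told apart, and the part of these cells in the differences of the 10 genes was not tested.

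**Figure D4:**
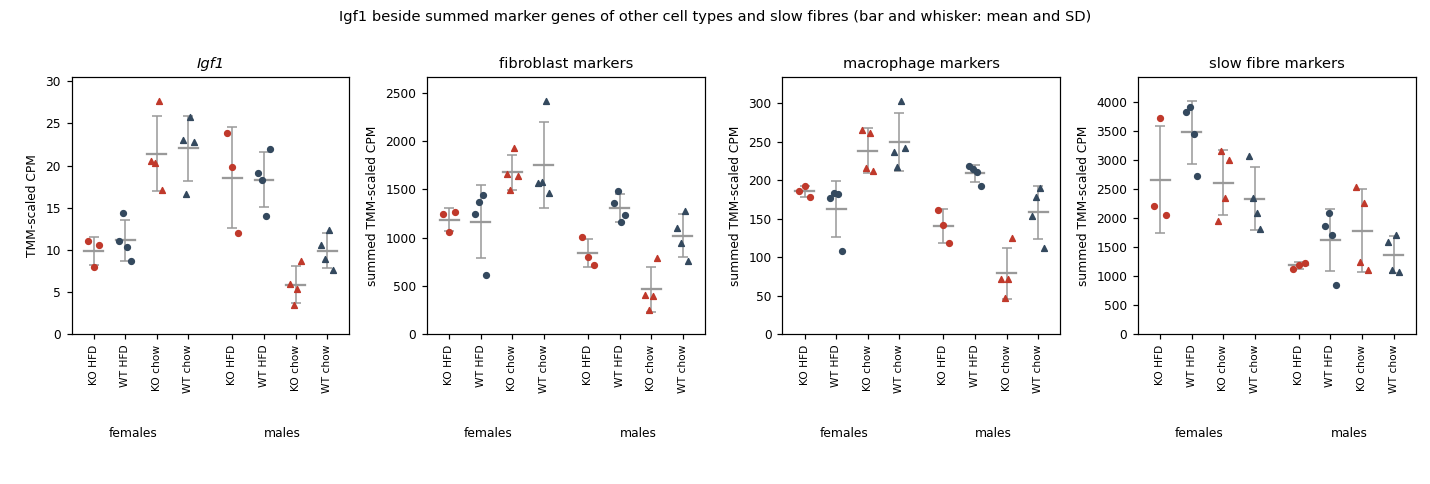
Igf1 (TMM-scaled CPM) beside the summed level of fibroblast, macrophage and slow-fibre marker genes in every library, with KO in red, WT in dark blue, circles for the high-fat diet and triangles for chow; bars and whiskers are mean and SD. The fibroblast and macrophage panels have the same order of diets in each sex as the Igf1 panel. The slow-fibre panel runs higher in females, with overlap, at 1806 to 3907 CPM in females and 842 to 2535 CPM in males. Slow-fibre medians were higher on HFD than on chow in WT (3631 against 2213 CPM in females, 1778 against 1346 CPM in males). In KO they were lower on HFD (2206 against 2666 CPM in females, 1189 against 1743 CPM in males), and the diet ranges overlapped in every case.

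Of 91 further genes listed around the pathway, 84 were tested. The lists were chosen with earlier results of these data known, so their shares beside all genes are a description. The test of a diet effect that differs between the sexes called 47 of the 84 (56.0%), of which 34 were negative and 13 positive, beside 45.2% of all genes, of which 3313 were negative and 3027 positive. Among the genes of growth hormone signalling, 4 of 6 passed and each was negative, and their part in the Igf1 difference was not tested. Jak2, the kinase of the growth hormone receptor, was at -0.65 ± 0.11 (adjusted p = 5.5e-05) and the receptor Ghr at -0.30 ± 0.12 (adjusted p = 0.044). The feedback genes were Socs2 at -1.18 ± 0.34 (adjusted p = 0.0069) and Cish at -2.55 ± 0.99 (adjusted p = 0.040). Of the 8 tested genes that bind IGFs or free them, 4 passed, with Stc1, an inhibitor of the protease PAPP-A, at -1.98 ± 0.48 (adjusted p = 0.0015) and Pappa itself at -1.51 ± 0.56 (adjusted p = 0.027). Igfbp6 and Igfbp3 passed as well, at -0.62 ± 0.23 and -0.35 ± 0.14.

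Of the 15 genes of the PI3K and AKT step, 9 passed and 8 of them were negative, led by Pik3r1, the regulatory subunit that IRS proteins bind (-0.94 ± 0.18, adjusted p = 0.00018). The phosphatase genes Phlpp2 (-0.73 ± 0.18) and the kinase genes Pdpk1 (-0.54 ± 0.13) and Pik3cb (-0.52 ± 0.13) followed. Glucose uptake was divided, with 6 positive and 6 negative among 14. Lnpep, the aminopeptidase that travels in GLUT4 vesicles, gave -2.49 ± 0.37 (adjusted p = 2.4e-05) and Tbc1d4, the AKT substrate that holds GLUT4 inside the cell, -0.62 ± 0.14. The fusion protein Stx4a (0.59 ± 0.13) and the glycogen synthase kinase Gsk3a (0.37 ± 0.09) went the other way.

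Of the 9 receptor-proximal genes 3 passed, each with a negative difference, among them the adaptor genes Shc1 (-0.32 ± 0.11) and Gab1 (-0.26 ± 0.10). Of the 7 brakes, Socs3 (-1.63 ± 0.54) and the phosphatase gene Ptprf (-1.31 ± 0.33) passed. In the growth arm 4 of 11 passed, Akt1s1 (0.75 ± 0.14) and Tsc2 (0.42 ± 0.10) with a positive and Foxo3 (-0.36 ± 0.11) and Tsc1 (-0.33 ± 0.11) with a negative difference. Around myostatin 9 of 14 passed, among them its receptor Acvr2b (-1.34 ± 0.31, adjusted p = 0.00094) and the co-receptor kinase Tgfbr1 (-0.57 ± 0.15), against Ltbp3 (0.70 ± 0.12), a latent TGF-beta binding protein, and the protease gene Furin (0.55 ± 0.14).

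**Figure D5:**
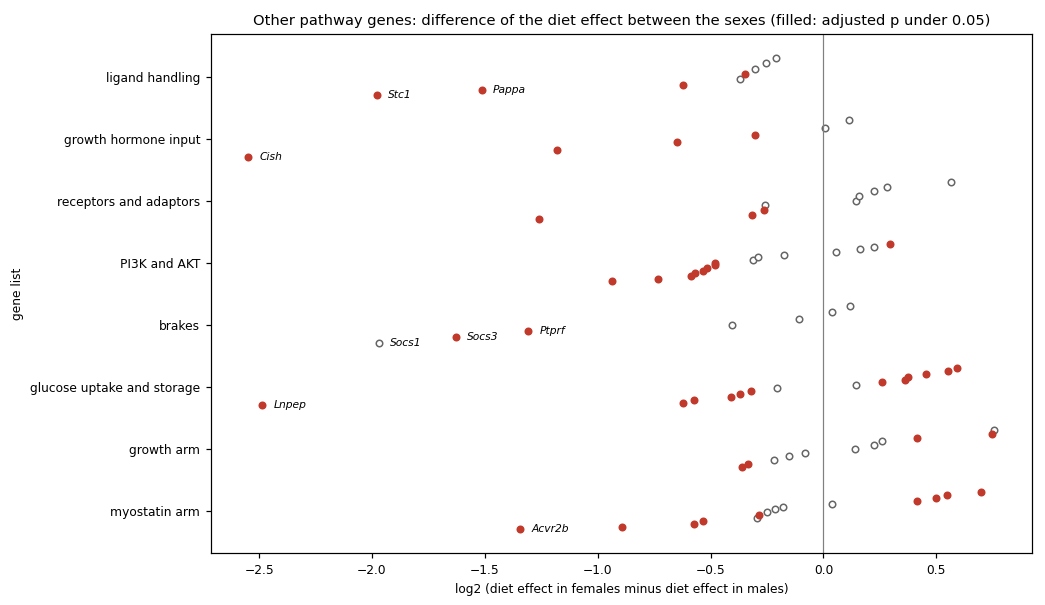
Diet effect in females minus diet effect in males, as a log2 difference, for the 84 tested genes of the pathway lists, 1 point per gene and 1 row per list; filled points passed the test over all genes. All 8 ligand-handling genes lie below 0, the glucose uptake row holds 6 called genes on each side, and Cish and Lnpep lie lowest at -2.55 and -2.49.

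The genotype average called 8 of the 84 genes (9.52%, beside 4.39% of all genes). Gdf11, the closest relative of myostatin, was higher in KO muscle (0.53 ± 0.08, adjusted p = 0.00017), as were the type I receptor Acvr1b (0.25 ± 0.07, adjusted p = 0.045), the kinase gene Mtor (0.23 ± 0.06, adjusted p = 0.019), Foxo1 (0.41 ± 0.10, adjusted p = 0.020) and hexokinase Hk2 (0.19 ± 0.05, adjusted p = 0.030). Bmp1, a protease that frees myostatin from its propeptide, was lower (-0.37 ± 0.08, adjusted p = 0.0076), as were the binding proteins Igfbp6 (-0.42 ± 0.11) and Igfbp4 (-0.30 ± 0.09). Mtor lies 14.1 Mb from Trim63 on chromosome 4 (148448611 to 148557683 in mm10) and is the 1 gene of these 8 on that chromosome, so that alleles linked to the deleted gene cannot be told apart from the knockout by design. Without the libraries high in Krt10 the count was 3, with grouping by the titles of their own records 1, and over the leave-outs 4 to 14, from female KO HFD replicate 1, female KO chow replicate 4, male KO HFD replicate 3 and male KO chow replicates 2 and 3 at 4 to female WT HFD replicate 4 at 14. In single groups the 13 calls were all in males on chow, where 15.5% of the 84 were called, beside 6.95% of all genes, with Gdf11 at 0.98 ± 0.16, the mTOR inhibitor gene Ddit4 at 2.29 ± 0.53, the FoxO gene Foxo1 at 0.66 ± 0.20 and follistatin, Fst, a protein that binds myostatin, at -0.96 ± 0.25. That count was 2 without male KO chow replicate 2 or 3. Igfbp4, Igfbp6, Bmp1 and Fst are genes of connective tissue cells as well. Of the 10 fibroblast markers 6 fell in the genotype average and 10 in males on chow, and their part was not tested.

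The diet average called 4 of the 84 (4.76%, beside 0.827% of all genes), namely glycogen synthase Gys1 (0.21 ± 0.04) and Hk2 (0.21 ± 0.05) upward and Stxbp3 (-0.26 ± 0.06) and Acvr2a (-0.35 ± 0.09) downward, and 0 of them without the libraries high in Krt10, male WT HFD replicate 3 or female WT chow replicate 4. In KO males the diet called 4 (4.76%, beside 5.83% of all genes), Socs3 (2.78 ± 0.59), Socs1 (4.23 ± 1.22), Pik3r1 (0.65 ± 0.19) and Ddit4 (-1.98 ± 0.58), and 0 of the 84 without male KO HFD replicate 2. In WT females it called 31.0% of the 84 and in KO females 19.0%, close to the 25.4% and 19.2% of all genes. The WT count was 26 (12 without female WT HFD replicate 3, 16 without female WT chow replicate 4, 0 with grouping by the records' own titles) and the KO count 16 (2 without female KO HFD replicate 2, 8 without female KO chow replicate 1, 0 without the libraries high in Krt10). Sex, averaged, called 43 of 84 (51.2%, beside 30.8% of all genes), 21 higher and 22 lower in females. Grb10, the adaptor that restrains both receptors, was higher in females by 0.79 ± 0.05 (adjusted p = 1.7e-13), Stc2 by 1.43 ± 0.14 and Socs2 by 1.15 ± 0.17. Jak2 (-0.56 ± 0.06) and Gdf11 (-0.72 ± 0.08) were lower in females.

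The genes most like each member were sought among 11757 genes, as the smallest root mean square difference of centred log2 CPM over the 30 libraries. For Igf1, whose own spread was 0.72, they were Ddr2 (0.29), Abca6 (0.29) and Man1a (0.29), and for Igf1r Fndc3b, Ahnak and Tmed8 (0.25 each). Igf2 had Angptl2 (0.24), Grb10 (0.25) and Kdm5c (0.27), and Mstn had Epb41l4b (0.21), Bmpr1b (0.21) and Serinc3 (0.23). Insr had Tm9sf3 (0.09), Kif1b (0.10) and Pum2 (0.10). For Irs1 the nearest was Zfp142 at 0.34 and for Irs2 Mdn1 at 0.32, farther than for any other member. The 30 libraries share sex, diet and depth differences, so these distances are a description.

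The 10 genes lie on mm10 chromosomes 1 (Igfbp5, Irs1 and Mstn), 7 (Igf1r, Igf2 and Akt2), 8 (Irs2 and Insr), 10 (Igf1) and 11 (Slc2a4), in the GENCODE M21 annotation. Igf1 (ENSMUSG00000020053) spans 87858265 to 87937042 on chromosome 10 on the plus strand and Mstn (ENSMUSG00000026100) 53061640 to 53068079 on the plus strand of chromosome 1. The exons of Irs1 overlap Gm9747 on the other strand by 2822 bases and those of Irs2 overlap 9530052E02Rik by 162 bases. These partners held 0 counts and at most 9 counts in a library. The sources used here do not say whether counting used strand, so reads of such pairs cannot be told apart with certainty. The exons of Igf2 also overlap Gm49394 on the same strand, which is not a row of these tables.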

How the data were processed

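RNA of 31 gastrocnemius libraries was measured by polyA RNA sequencing with a stranded kit and 150 bp paired reads, per the labels' protocols. The authors deposited raw read counts for 39017 Ensembl identifiers per library; bcl2fastq, featureCounts and mm10 are named per the submitters' processing notes. Neither the aligner nor the annotation release or strand setting is given in the sources used here. Symbols and positions are from GENCODE M21, which held 37693 of the identifiers. Of 42 pairs of libraries in the same group, 0 agreed within sampling noise (lowest chi-square per gene 4.67).

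Counts were fitted in edgeR 4.0.16 (R 4.3.3) by quasi-likelihood (TMM, filterByExpr with a minimum count of 10, robust dispersion) over 14024 genes. The fit had 1 coefficient for each of 8 groups, and the groups shared the spread estimated for each gene. The common estimate over genes was 14.2% between animals. Within each of 18 comparisons the Benjamini-Hochberg adjustment was applied, and a gene is called below 0.05. Averages weight strata equally. Values after ± are standard errors of log2 fold changes or SDs of levels. Intervals of sequencing depth are not given, and a count of 3 corresponds to 0.201 to 0.321 CPM.

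Alternatives were DESeq2 1.42.0, RLE scaling, no count filter, a GC offset, only the groups compared, a replicate block and grouping by the records' own titles. Others were the 26 libraries whose own title gives the same group, called the matching libraries below, some of which carry another animal in that title. The rest left out the libraries with Trim63 of 50 to 150 CPM, those with Krt10 over 10 times its median, or each library in turn. The pathway counts under these were added after seeing the data, as were the E-box and TATA motifs. Named pathway genes are at most the 4 called genes of smallest p per list and comparison, and 1 such gene is not reported here. All 10 members are named. The 10 genes and all lists were chosen with earlier results of these data known. Libraries were taken as separate animals by their animal numbers. The steps were tested on simulated data. RefSeq promoters were found for 8 of the 10 genes, in 14 windows.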

Additional observations from a re-analysis of the deposited data

Results flagged for a closer look

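The diet effect differed between females and males in a test of the difference itself for 6 of the 10 genes. The log2 difference, diet effect in females minus that in males, was -2.31 for Igf1, -1.53 for Igf1r, -1.26 for Irs1, -1.34 for Irs2, -0.57 for Insr and -0.94 for Mstn. Each is set against the 45.2% of all genes that passed the same test.

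Single libraries stood apart from the other 3 of their group in 5 of 60 gene and group pairs with 4 libraries, and chance alone flags about 1 in 20. Igf2 was highest in male WT HFD replicate 2, at 19.7 CPM beside 13.7 to 14.6 CPM, and in female KO chow replicate 3, at 34.6 CPM beside 20.2 to 21.7 CPM. The second of these is among the libraries high in Krt10. Irs1 was lowest in male WT chow replicate 2, at 19.6 CPM beside 22.2 to 22.4 CPM, and Irs2 in female KO chow replicate 4, at 8.37 CPM beside 13.9 to 14.5 CPM. Insr was lowest in female WT HFD replicate 3, at 58.6 CPM beside 82.8 to 87.7 CPM.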

How the results depend on the processing

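Of 44 member calls, 18 held in every setting, 24 were lost in at least 1 other setting, 23 in at least 1 leave-out, and 0 changed sign. The count of the 10 genes called moved by over 1.5 times as follows. With DESeq2 it was 1 (0 as fitted) for genotype in chow males and 2 (0) for diet in WT males. With a GC correction it was 2 (1) for genotype average, 0 (1) for diet average, 1 (0) for genotype in chow males, 2 (0) for diet in WT males and 1 (4) in WT females. RLE scaling, the replicate block, no filter, the matching libraries and both sets left out by Trim63 or Krt10 each gave 0 (1) for diet average. By the titles of their own records it was 0 (1) for genotype and for diet average, 3 (5) for sex average, 0 (4) for diet in WT females, and 1 (4) and 2 (5) for sex in WT chow and WT HFD. With no filter it was 2 (5) for sex average, 2 (4) for diet in KO males and 2 (4) for sex in WT chow. The matching libraries gave 1 (0) for genotype in chow males, 1 (0) for diet in WT males and 3 (5) for sex in WT HFD. With only the groups compared it was 1 (0), 1 (0) and 3 (5) for the same comparisons, 8 (5) for sex in KO chow and 2 (5) in KO HFD. Between groups, the median r was 0.0265 over 99 same-numbered pairs of libraries, beside -0.00636 over 294 differently numbered pairs. Of the 30 libraries, 13 correlated best with a library of their own number. Whether replicate numbers pair libraries was not tested further. The replicate block gave 1 (0) for genotype in males on either diet. Without the Krt10-high libraries it was 0 (1) for genotype average, 2 (5) for sex average, 2 (4) for diet in KO males, 0 (4) in KO females and 1 (4) for sex in WT chow. Without the libraries of middle Trim63 it was 1 (0) for genotype in HFD males, 2 (4) for diet in WT females and 3 (5) for sex in WT HFD.

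Leaving out 1 library gave 1 to 1 for genotype average, 0 to 1 for diet average, 3 to 5 for sex average, 0 to 3 and 0 to 1 for genotype in males on chow and HFD, 0 to 0 in females on either diet, 0 to 1, 1 to 4, 3 to 4 and 0 to 4 for diet in WT males, KO males, WT females and KO females, 1 to 4, 2 to 5, 4 to 6 and 2 to 6 for sex in WT chow, WT HFD, KO chow and KO HFD, 0 to 0 for genotype by diet and by sex, and 6 to 6 for diet by sex.

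Over all genes, the count called was 128 (615 as fitted) for genotype average, 0 (116) for diet average, 5 (3558) for diet in WT females, 129 (1689) and 469 (1759) for sex in WT chow and WT HFD by the titles of the records, and 106 (2688) for diet in KO females without the Krt10-high libraries. In KO males the diet called 106 (818) without male KO HFD replicate 1, and in chow males genotype called 183 (974) without male KO chow replicate 2. The diet by sex count ran from 5070 to 6717 (6340). Grouping by the titles of the records puts a library of male Ddx3y level in a female group. It also puts libraries of WT and of KO Trim63 level in groups of the other genotype. The cause of the moves in these counts was not tested.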

Other observations

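The title of its own record names male KO HFD for the library that was put in no group because its described animal is in no title. This library held 107 CPM of Trim63 without TMM scaling. With TMM scaling the lowest WT library held 107 CPM and the highest KO library 7.75 CPM. In it Igf1 stood at 24.4 CPM, Igf1r at 4.86, Igf2 at 14.4, Igfbp5 at 591, Irs1 at 32.5, Irs2 at 13.6, Insr at 112, Akt2 at 275, Slc2a4 at 572 and Mstn at 83.5 CPM, from a total that gives Igf1r 51 counts.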
